A study of Mus musculus with 16 samples.

Results

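The set comprises 10 genes of lipid storage and removal out of the 55426 in the deposited table and all 10 among the 18833 with enough counts to be tested. They are the 5 perilipins (Plin1 to Plin5), the cholesterol exporters Abca1 and Abcg1, the apolipoprotein Apoe, the sterol-sensing nuclear receptor Nr1h3 and the wax ester synthase Awat1. Each was found by its symbol, which matched 1 row. The measurements are poly(A) RNA sequencing of 1 ovary from each of 16 mice, females of the C57BL/6NHsd strain, in 4 groups of 4. On T mice were given testosterone enanthate, a slow-release ester of the hormone, at 0.9 mg in a weekly subcutaneous dose for 6 weeks from an age of 9 to 10 weeks and were 16 weeks old when killed. Post T mice had the same 6 weeks of injections, which were then stopped, and were killed once 4 estrous cycles had passed after cycling resumed, at 24, 26, 26 and 28 weeks. Each treated group had age-matched controls given sesame oil alone, 16 weeks old for On T and 24, 26, 26 and 28 weeks old for Post T. All ovaries were taken in diestrus. Because cycling resumed in Post T mice after the injections had stopped, diestrus in On T mice need not match the diestrus of their controls. On T and Post T differ in age as well as in exposure. The set was proposed with results of both treated-minus-control comparisons in view, and the On T values of Awat1 and Apoe were already known as high, so in those comparisons the values of the 10 genes are a description and no p-value is attached to them.

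Cells keep surplus fatty acids and cholesterol as esters in lipid droplets, and perilipins are the proteins that coat the droplet surface and control the access of lipases. Steroid-making cells of the ovary hold cholesterol ester droplets as the raw material of hormones, while fat cells hold triglyceride. Macrophages that take up dying cells load cholesterol too, and they dispose of it by efflux. The nuclear receptors LXR alpha, the product of Nr1h3, and LXR beta sense oxidised sterols and switch on the exporters ABCA1 and ABCG1 and the carrier apolipoprotein E. AWAT1 joins fatty acids to long-chain alcohols to make wax esters, a reaction best known from the sebaceous glands of the skin.

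Levels are given as CPM, counts scaled to a common library size after TMM normalisation, to compare a gene between libraries, and as TPM, which also divides by transcript length, to compare genes with each other. The libraries held 26598055 to 52659637 counts, and 3 counts corresponded to 0.0571 to 0.117 CPM. Granulosa cell markers were present in every library, with summed levels of 2457 to 9741 CPM, so each library carried ovarian RNA. On T library 2 stood apart in the markers of the surface epithelium (40.5 CPM, against 93.5 to 293 CPM in the other On T libraries and 173 to 248 CPM in their controls). It also had the lowest granulosa sum of its group (2457 CPM, against 6493 to 9741 CPM). Its theca and stroma sum was the highest of the group (3164 CPM, against 1927 to 2731 CPM). Post T control library 1 had the highest luteal marker sum of all 16. In bulk ovary, fewer cells of a type and less RNA per cell cannot be told apart.

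Plin4 and Plin5 were far lower in both testosterone groups, and 6 other genes of the set were higher in the Post T group than in its controls. A gene is called where edgeR's quasi-likelihood test, adjusted over all 18833 genes by Benjamini-Hochberg, gave a value under 0.05. On T, 4 of the 10 genes were called, Apoe and Awat1 as higher and Plin4 and Plin5 as lower, where 9.27% of all genes were called (4.24% higher and 5.03% lower). Post T, 8 of the 10 were called, namely Plin2, Abca1, Abcg1, Apoe, Nr1h3 and Awat1 as higher and Plin4 and Plin5 as lower, where 12.3% of all genes were called (7.49% higher and 4.81% lower). The same 4 and 8 genes had groups that did not overlap, where this held for 15.1% of all genes On T (7.22% higher and 7.92% lower) and 16.5% Post T (9.62% higher and 6.92% lower). Before adjustment, 10 of the 10 had p under 0.05 Post T, where 22.9% of all genes did, and 4 On T, where 22.3% did. Awat1 passed the filter on low counts through its Post T libraries, so its On T call and its values between controls come from a gene kept for another group. Its Post T call, and its place among the 8, are not free of the filter either, since it was kept for the group where it is high. Nothing is read from these numbers of called genes, since the genes were put together with those comparisons known. With library 2 of On T and library 1 of the Post T controls left out, the counts were 3 and 9, with Apoe no longer called On T and Plin3 called as higher Post T.

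**Figure D1:**
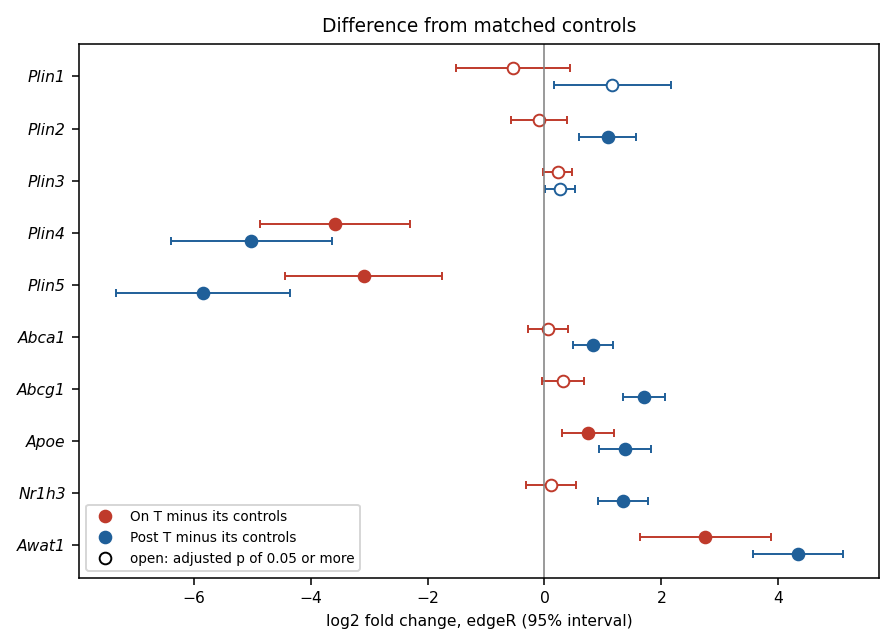
Log2 fold change of each gene in the treated group relative to its own controls, with 95% intervals, for On T (red) and Post T (blue). Filled points passed the adjusted threshold of 0.05 over all genes; Plin4 and Plin5 lie far left in both comparisons, and the efflux genes Abca1, Abcg1 and Nr1h3 are filled for Post T and open for On T.

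Plin4 encodes the longest perilipin, found on the small nascent droplets of fat cells. It stood at 11.6, 20.8, 8.67 and 10.2 CPM in the On T libraries, against 55.1, 309, 51.1 and 196 CPM in their controls. In the Post T libraries it was at 7.01, 14.0, 7.03 and 5.80 CPM, against 301, 117, 151 and 522 CPM in their controls. The highest treated library lay below the lowest control library in both cohorts. The controls themselves spread widely, averaging 153 ± 124 CPM in the younger and 273 ± 185 CPM in the older cohort (SD, n = 4 each). The log2 fold change was -3.58 (SE 0.61) On T and -5.01 (SE 0.65) Post T, n = 4 in each group. Without On T control library 2, the one at 309 CPM, the On T value was -2.96.

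Plin5, which tethers droplets to mitochondria in tissues that burn fat, followed Plin4. Its levels were 1.09, 0.688, 1.04 and 0.780 CPM On T, against 4.21, 15.2, 4.14 and 7.85 CPM in the controls. Post T it was at 0.565, 0.505, 0.374 and 0.542 CPM, against 71.1, 6.995, 11.6 and 26.4 CPM in the controls. Again no treated library reached the level of any control of its cohort. The log2 fold change was -3.09 (SE 0.63) On T and -5.84 (SE 0.71) Post T. Post T control library 1, at 71.1 CPM, weighed on the second value, and without it the log2 fold change was -4.88.

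Plin4 and Plin5 are neighbours. Both are read from the minus strand of chromosome 17 in the GENCODE annotation of GRCm38, Plin4 (ENSMUSG00000002831) from 56100591 to 56109803 and Plin5 (ENSMUSG00000011305) from 56111601 to 56117596, with 1797 bases and no other protein-coding gene between them. Plin3 (ENSMUSG00000024197, 56277476 to 56292873) is on that chromosome too, 159879 bases and 7 protein-coding genes beyond Plin5, and it was not called in either cohort. No window of 150 bases in the transcripts of any of the 10 genes occurs in a transcript of another gene. Of the exon bases of Plin4, 0.294% overlap Hdgfl2 on the opposite strand, and of those of Nr1h3, 1.352% overlap Gm13783. The 250 bases upstream of both starts are shown because this pair differed most among the perilipins, with bases in capitals where a searched motif occurred, 5′ to 3′, from RefSeq on GRCm38.p6. The Plin4 window is chr17:56109783-56110032, minus strand, and the Plin5 window, for the more upstream of its 2 listed starts, is chr17:56117549-56117798, minus strand.
Plin4: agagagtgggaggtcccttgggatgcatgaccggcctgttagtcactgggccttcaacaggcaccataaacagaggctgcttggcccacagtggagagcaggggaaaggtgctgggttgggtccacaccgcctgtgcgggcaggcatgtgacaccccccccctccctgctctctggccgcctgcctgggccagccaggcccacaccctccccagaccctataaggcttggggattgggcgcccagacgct
Plin5: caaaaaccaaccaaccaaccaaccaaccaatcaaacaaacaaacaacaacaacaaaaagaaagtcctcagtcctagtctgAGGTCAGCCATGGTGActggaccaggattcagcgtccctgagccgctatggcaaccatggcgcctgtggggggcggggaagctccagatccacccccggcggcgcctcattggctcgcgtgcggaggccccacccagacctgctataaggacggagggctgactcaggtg
The capitals in Plin5, 170 to 155 bases before the start, hold AGGTNA and then NGGTNA with 4 bases between them, a loose form of the spaced repeat that LXR and its partner RXR can bind, and they contain the nuclear receptor half-site AGGTCA. Of 32851 mouse promoter windows of this length, 0.204% held the loose repeat and 14.0% the half-site on either strand. Strict repeats of AGGTCA with 4 bases or 1 base between the copies (0.0152% and 0.0335% of all windows), the NR5A site CAAGGTCA (1.33%) and the full androgen response element, AGAACA and TGTTCT with 3 bases between (0.00913%), occurred in none of the 13 windows listed for the set. The Plin4 window held no searched motif. A window was listed for 9 of the 10 genes, all but Abcg1.

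Luteal markers were lower in the testosterone groups too. The gene lists used here and below were chosen with earlier results of these data known. Their counts and p-values are therefore a description and not independent of that choice. Of 11 markers of the corpus luteum, the progesterone gland formed after ovulation, 7 fell and 0 rose On T, and 7 fell and 0 rose Post T, with median log2 fold changes of -2.09 and -0.98 beside -0.01 and -0.01 over all genes. Among all genes 5.03% fell On T and 4.81% fell Post T. Their summed level was 4940.1 to 8849 CPM On T, against 12120 to 14639 CPM in the controls, and 5938 to 10390 CPM Post T, against 10048 to 21958 CPM in the controls. Akr1c18, whose enzyme inactivates progesterone, averaged 0.643 ± 0.268 CPM On T and 141 ± 35.3 CPM in controls (SD, n = 4 each; edgeR adjusted p = 1.54e-11). Hsd3b1, the most abundant gene of the list and also expressed outside the corpus luteum, averaged 4231 CPM On T and 4803 CPM in controls. The older controls with the most Plin4 and Plin5, libraries 1 and 4, had the highest luteal sums (21958 and 17637 CPM, against 10048 and 11282 CPM in libraries 2 and 3). Among the younger controls, libraries 2 and 4 had the most Plin4 and Plin5 and also the highest luteal sums (14639 and 14271 CPM, against 13402 and 12120 CPM). Within the treated groups Hsd3b1 was the largest part of the sum, averaging 4231 CPM On T and 4107 CPM Post T. Akr1c18, Ptgfr and Sfrp4 averaged 0.643, 3.11 and 5.77 CPM On T, and 0.207, 4.11 and 25.4 CPM Post T. Ranking treated libraries by the sum therefore need not rank their luteal content. In both treated groups, the library with the highest luteal sum had the lowest Plin4. These were On T library 3 (8849 and 8.67 CPM) and Post T library 4 (10390 and 5.80 CPM). On T library 4, with the lowest luteal sum (4940.1 CPM), had Plin4 at 10.2 CPM. Plin5 differed from Plin4 here. It was highest in On T libraries 1 and 3 (1.09 and 1.04 CPM), which had the highest luteal sums On T (5995.6 and 8849 CPM). Post T it was highest in libraries 1 and 4 (0.565 and 0.542 CPM), again those with the highest luteal sums (9926.9 and 10390 CPM). The part of luteal content in the Plin4 and Plin5 values was not tested.

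Because fat surrounds the ovary and was dissected away from it, fat cell markers were examined as well. Of 11 tested adipocyte markers 0 passed On T, where their median log2 fold change was -1.16, and 1 passed Post T, where the median was -0.10. That one was Fabp4, higher Post T (92.8 ± 23.8 CPM, against 15.9 ± 6.43 CPM in controls; log2 2.54, SE 0.49, edgeR adjusted p = 0.00173), a fatty acid carrier that macrophages and endothelial cells also make. The list summed to 188 to 222 CPM On T, against 131 to 253 CPM in controls, and to 194 to 278 CPM Post T, against 155 to 206 CPM in controls, its most abundant gene being Nnat (81.3 CPM on average), which is not specific to fat. Adipoq, which encodes the fat cell hormone adiponectin, was uneven inside groups, at 1.97 CPM in On T library 2 and 0.0289 to 0.0381 CPM in the other On T libraries. In the Post T group it stood at 2.94 CPM in library 2 and at 0 to 0.0451 CPM in the other 3. Those same libraries, On T 2 and Post T 2, carried the most Plin4 of their groups (20.8 and 14.0 CPM). Among controls of the On T cohort, library 3 had the most Adipoq (6.29 CPM) with the lowest Plin4 (51.1 CPM). Library 2 had 1.80 CPM of Adipoq with the highest Plin4 (309 CPM). In control library 4 of that cohort, Plin4 was at 196 CPM with 0 counts of Adipoq, Cidec, Lep and Retn. The older controls with the most Adipoq, libraries 2 and 3 (0.718 and 1.925 CPM), had the least Plin4 (117 and 151 CPM). The part of fat tissue in the Plin4 values was not tested. Skeletal muscle markers, which could accompany Plin5, summed to 2.94 to 7.11 CPM over all libraries, and Myh4 and Myog had 0 counts in every one.

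Plin1, the perilipin of fat cells and also of steroid-making cells, did not pass in either cohort. It was at 17.0, 23.7, 56.1 and 15.5 CPM On T, against 54.2, 26.0, 47.1 and 34.9 CPM in controls, with overlapping groups (log2 -0.53, SE 0.46, 95% interval -1.51 to 0.44). Post T it was at 52.8, 21.4, 9.71 and 50.3 CPM, against 9.74, 15.4, 16.8 and 18.1 CPM in controls, with 3 of 4 treated libraries above every control and 1 below them all (log2 1.16, SE 0.47, 95% interval 0.16 to 2.16). Without Post T library 3, the low one, it was called (log2 1.46). The most Plin1 among On T libraries, in library 3, came with 0.0289 CPM of Adipoq, and the most among Post T libraries, in library 1, with 0 counts of it. On T library 3 also had the highest luteal and granulosa sums of its group (8849 and 9741 CPM). Post T libraries 1 and 4 had the highest luteal sums of theirs (9926.9 and 10390 CPM), and library 3 the lowest (5938 CPM). In both control groups, however, the lowest Plin1 came with the highest luteal sum (On T control library 2 and Post T control library 1). The parts of fat tissue and of steroid-making cells in the Plin1 values were not tested.

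Plin2, the perilipin found on droplets of nearly all cells and stabilised by lipid itself, was higher Post T. It stood at 191, 223, 326 and 191 CPM in the Post T libraries, against 96.6, 124, 139 and 80.6 CPM in their controls. No treated library overlapped a control (log2 1.08, SE 0.23). On T it was at 93.0, 90.8, 78.9 and 103 CPM, against 139.9, 71.4, 106 and 70.7 CPM in controls, inside the range of the controls (log2 -0.09, SE 0.23, 95% interval -0.57 to 0.39). Plin3, a cytosolic perilipin that moves onto new droplets, was not called. It averaged 114 ± 13.4 CPM On T and 97.4 ± 8.82 CPM in controls, and 125 ± 12.4 CPM Post T and 104 ± 17.2 CPM in controls (SD, n = 4 each), with log2 fold changes of 0.22 (SE 0.12) and 0.27 (SE 0.12) and overlapping groups. Post T it was called without control library 1, the highest of the controls at 128 CPM (log2 0.41).

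**Figure D2:**
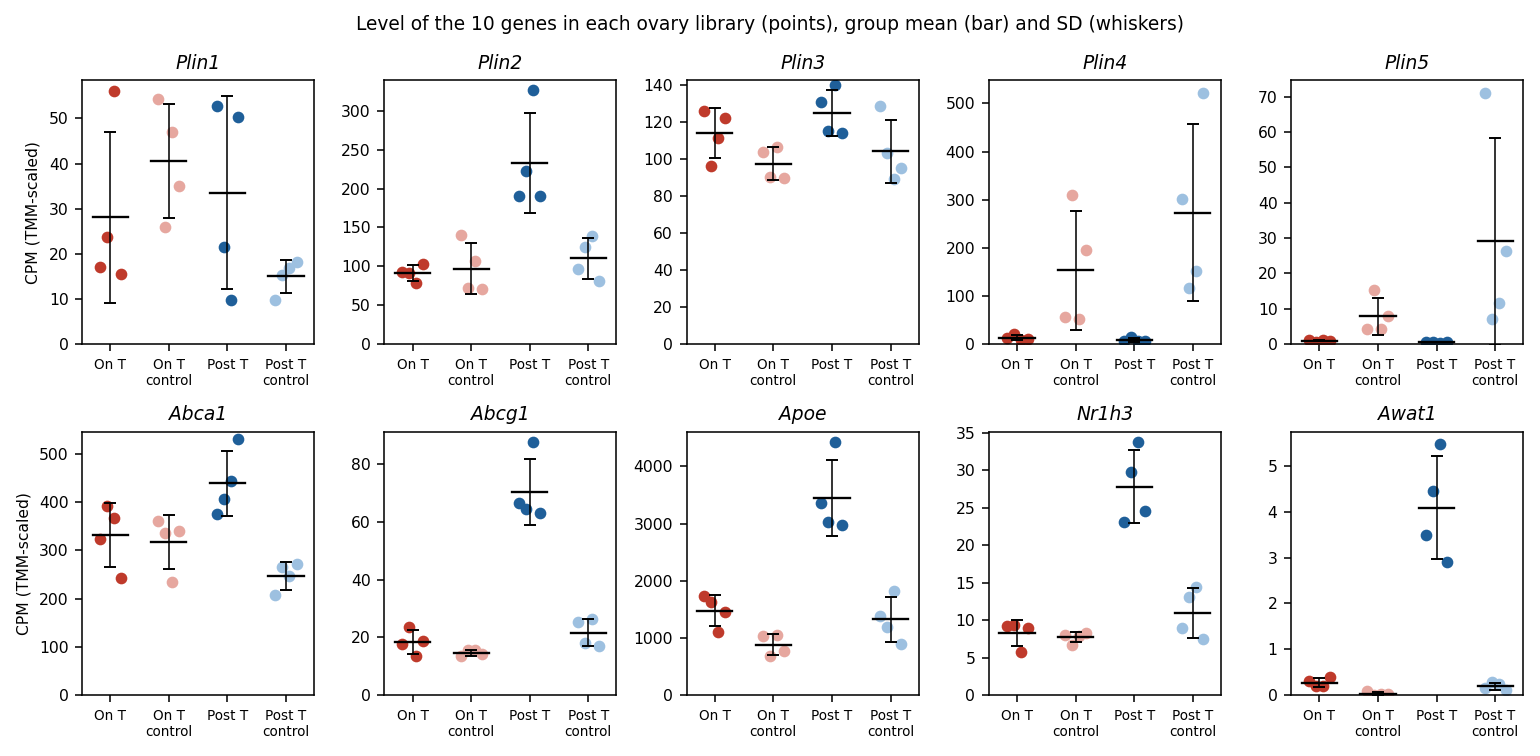
CPM after TMM scaling (vertical axes, linear from 0) of the 10 genes in each library (points) of the 4 groups, with the group mean (bar) and SD (whiskers, n = 4). Plin4 and Plin5 are low in both testosterone groups beside widely spread controls, while Plin2, Abcg1, Apoe, Nr1h3 and Awat1 are high in the Post T group alone or above all in it.

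Per length, the make-up of the perilipin transcripts differed between the groups. The 5 perilipins together made 144 to 166 TPM in On T libraries, against 178 to 209 TPM in controls, and 253 to 311 TPM Post T, against 197 to 271 TPM in controls. Plin2 accounted for 41.9% to 58.5% of that sum On T, against 31.4% to 56.0% in controls, and for 63.3% to 81.8% Post T, against 27.4% to 57.2% in controls. The share of Plin4 was 1.14% to 3.30% On T, against 5.78% to 34.8% in controls, and 0.456% to 1.19% Post T, against 13.9% to 45.2% in controls. For Plin5 the share was at most 0.561% On T and 0.162% Post T, where it reached 5.85% in the younger and 20.3% in the older controls. The mean order of TPM in the older controls was Plin2, Plin4, Plin3, Plin5 and Plin1 (96.2, 60.9, 39.8, 20.7 and 12.2 TPM), and no neighbours in that order were separated in every library. Plin4 was above Plin2 in library 4 (122 and 74.0 TPM), and Plin5 was below Plin1 in libraries 2 and 3 (5.54 and 9.00 TPM, against 13.02 and 15.03 TPM). Post T the order was Plin2, Plin3, Plin1, Plin4 and Plin5 (198, 47.0, 26.8, 1.84 and 0.370 TPM), and the highest Plin1 library, at 46.2 TPM, lay within the range of Plin3, 44.0 to 50.9 TPM.

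**Figure D3:**
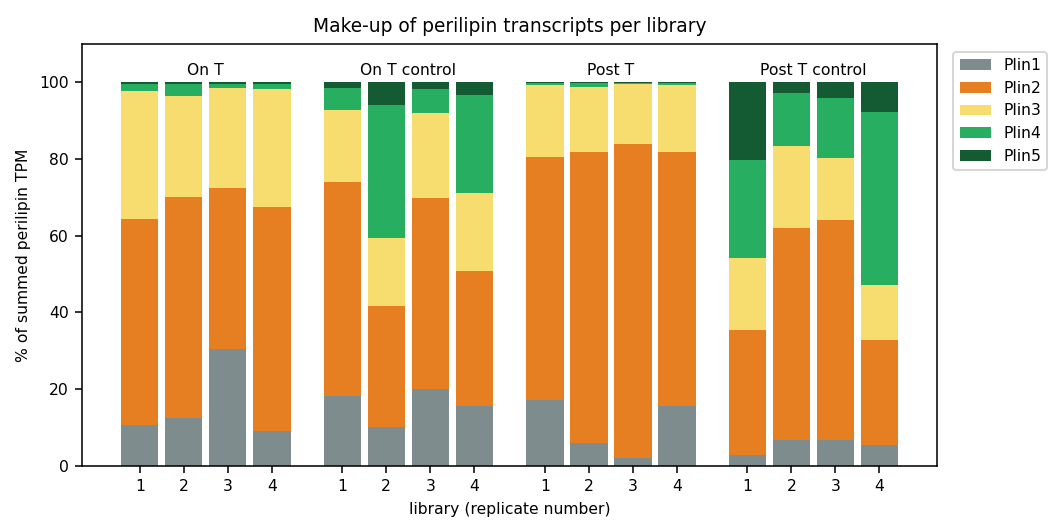
Share of each perilipin in the summed perilipin TPM (vertical axis, %) of every library, grouped as On T, On T control, Post T and Post T control. Plin4 and Plin5 (greens) take up to 45.2% and 20.3% in controls and are thin bands in both testosterone groups, and Plin2 (orange) takes 63.3% to 81.8% in Post T libraries.

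The efflux genes were higher Post T, and the exporters were not called On T. Abcg1, which loads cholesterol onto lipoprotein particles, was at 66.5, 64.5, 87.4 and 63.1 CPM Post T, against 25.3, 18.02, 26.3 and 17.2 CPM in controls (log2 1.70, SE 0.17). The lowest Post T library lay far above the highest control. On T it was at 17.8, 23.5, 13.4 and 18.8 CPM, against 13.6, 15.6, 15.5 and 14.1 CPM in controls, an overlapping range (log2 0.32, SE 0.17, 95% interval -0.04 to 0.68). Abca1, which passes cholesterol to lipid-free apolipoproteins, had 375, 406, 444 and 529.6 CPM Post T, against 207, 266, 246 and 271 CPM in controls, without overlap (log2 0.83, SE 0.16). On T its values of 243 to 392 CPM lay around those of the controls, 234 to 360.1 CPM (log2 0.06, SE 0.16, 95% interval -0.27 to 0.40).

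Apoe, the carrier on which exported cholesterol leaves the cell, was the most abundant gene of the set per length in every group. It averaged 5664 ± 748 TPM Post T and 2228 ± 688 TPM in controls, and 2524 ± 444 TPM On T and 1523 ± 281 TPM in controls (SD, n = 4 each). In CPM the Post T libraries had 3366, 3026, 4420.5 and 2985, against 1395, 1194, 1832 and 892 in controls (log2 1.38, SE 0.21). On T they had 1737, 1628, 1104 and 1457, against 1034, 680.2, 1055 and 779 (log2 0.74, SE 0.21), so the lowest On T library lay just above the highest control. This On T call did not hold without any of 5 libraries in turn, namely On T 1, 2 or 4 or control 2 or 4. Nr1h3, the LXR alpha gene, was at 23.2, 29.8, 33.8 and 24.6 CPM Post T, against 8.92, 13.1, 14.4 and 7.45 CPM in controls, without overlap (log2 1.34, SE 0.20). On T it was at 9.20, 9.40, 5.75 and 8.98 CPM, against 8.01, 6.75, 7.87 and 8.27 CPM in controls (log2 0.11, SE 0.20, 95% interval -0.32 to 0.54). The other LXR gene, Nr1h2, was not called in either cohort (log2 0.04 On T and 0.07 Post T, edgeR adjusted p = 0.801 and 0.639).

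Of Abca1 the 250 bases before the start (chr4:53159896-53160145, minus strand) are shown because that gene is a classic LXR target. The capitals mark, in order, the E-box CACGTG and, on the opposite strand, the androgen receptor half-site TGTTCT.
Abca1: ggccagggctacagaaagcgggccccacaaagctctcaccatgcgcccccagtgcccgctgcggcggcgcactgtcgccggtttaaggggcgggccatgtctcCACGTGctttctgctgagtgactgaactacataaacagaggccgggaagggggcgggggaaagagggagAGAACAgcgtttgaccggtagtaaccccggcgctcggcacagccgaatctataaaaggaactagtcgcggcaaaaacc
Across all windows of this length 6.02% held CACGTG and 16.1% held TGTTCT. The strict LXR repeat and the loose form, as searched here, were not among the letters of this window. The loose form has a fixed first base. On the opposite strand, this window held a repeat with 4 bases between its copies that missed the loose form at that base alone. The absence of the searched forms therefore does not show that the window lacks an LXR repeat.

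Awat1 was a low gene in every group and highest Post T. Post T it had 142, 150, 161 and 129 counts, against 4, 9, 8 and 5 counts in controls, or 3.49, 4.46, 5.47 and 2.91 CPM against 0.156, 0.281, 0.237 and 0.123 CPM (log2 4.34, SE 0.36). No Post T library overlapped a control. On T it had 16, 6, 7 and 14 counts, against 4, 0, 1 and 1 counts in controls (log2 2.75, SE 0.53), and without On T control library 1, the one with 4 counts, the difference was 3.68. Measured as log2(TPM + 1), a scale that shrinks differences between low levels, the On T difference was 0.34 and did not pass. Awat1 (ENSMUSG00000015665) is read from the plus strand of chromosome X, 100572251 to 100578205 in GRCm38, and the window before its start, chrX:100571997-100572246, held 1 searched motif, the half-site TGTTCT in capitals, 179 to 174 bases upstream. It is shown because Awat1 had the highest fold change of the set Post T.
Awat1: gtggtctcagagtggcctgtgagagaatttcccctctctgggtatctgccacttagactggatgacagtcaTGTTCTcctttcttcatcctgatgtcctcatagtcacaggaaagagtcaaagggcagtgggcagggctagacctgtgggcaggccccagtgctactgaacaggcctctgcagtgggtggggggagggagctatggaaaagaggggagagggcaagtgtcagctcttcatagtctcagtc

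No other wax ester gene that could be tested was called higher. Awat2, its closest relative by function, had 0.778 CPM Post T and 0.568 CPM in controls (log2 0.47, edgeR adjusted p = 0.466). Dgat2l6, another member of the family, had 0 counts in all 16 libraries, and Mogat1, Mogat2 and Elovl3 had too few to be tested. Of 9 tested partners in wax ester and acyl-CoA metabolism 0 rose and 2 fell On T, and 0 rose and 1 fell Post T, with medians of -0.35 and -0.31. The shares over all genes were 4.24% higher and 5.03% lower On T, and 7.49% and 4.81% Post T. With 1 library left out, 0 to 1 rose and 1 to 3 fell On T, and 0 rose and 1 to 2 fell Post T. The fatty acyl-CoA reductase Far1, which makes the alcohols that wax esters are built from, was at 70.7 ± 8.96 CPM On T and 240.1 ± 107 CPM in controls (log2 -1.76, SE 0.25, edgeR adjusted p = 0.000268). Post T it was at 73.7 ± 11.5 CPM, against 188 ± 49.5 CPM in controls (log2 -1.35, SE 0.25, edgeR adjusted p = 0.00114). The elongase Elovl1 fell by 0.25 On T (SE 0.08, edgeR adjusted p = 0.049). Sebaceous gland markers did not rise, with 0 of 6 higher in either cohort, 1 lower On T (Krt79, log2 -1.02, edgeR adjusted p = 0.0164), and sums of 4.42 to 10.1 CPM over all libraries.

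Macrophage markers moved with the genes that were higher Post T. Of 15 markers, 9 rose and 2 fell Post T, and 4 rose and 1 fell On T, with medians of 1.04 and 0.03. The shares over all genes, for this and the other lists here, were 7.49% higher and 4.81% lower Post T, and 4.24% and 5.03% On T. The sums were 3435 to 5239 CPM Post T, against 536 to 1142 CPM in controls, and 572 to 1060 CPM On T, against 382 to 543 CPM in controls. The genes that fell were Cx3cr1, a chemokine receptor (log2 -0.83 On T and -0.86 Post T, edgeR adjusted p = 0.00729 and 0.00374), and, Post T, the scavenger receptor Cd163 (log2 -1.92, edgeR adjusted p = 0.0246). Lyz2, the lysozyme of myeloid cells, was the most abundant (1074 CPM on average). Cd68, a lysosomal glycoprotein, averaged 162 ± 41.0 CPM Post T and 26.6 ± 5.95 CPM in controls (log2 2.61, SE 0.23, edgeR adjusted p = 8.01e-07). Of 11 genes of lipid-laden macrophages, 11 rose Post T and 7 rose On T, and none fell (medians 2.48 and 0.92). Both macrophage lists were chosen with earlier results of these data known, so these counts are a description. Their sums were 6368 to 9796 CPM Post T, against 1134 to 1662 CPM in controls, and 1298 to 1885 CPM On T, against 840 to 1125 CPM in controls. Post T library 3, with the highest macrophage sum, also had the most Plin2, Abcg1, Apoe, Nr1h3 and Awat1 of its group, but not the most Abca1. That is 1 library, from the oldest mouse of the group (28 weeks). It also had the lowest luteal and granulosa sums of the group (5938 and 3254 CPM). The part of macrophage content in the values of the set was not tested. Of 8 theca and stroma markers 4 rose and 1 fell On T, and 2 rose Post T, while 0 of 8 granulosa and 0 of 9 surface epithelium markers passed in either cohort.

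**Figure D4:**
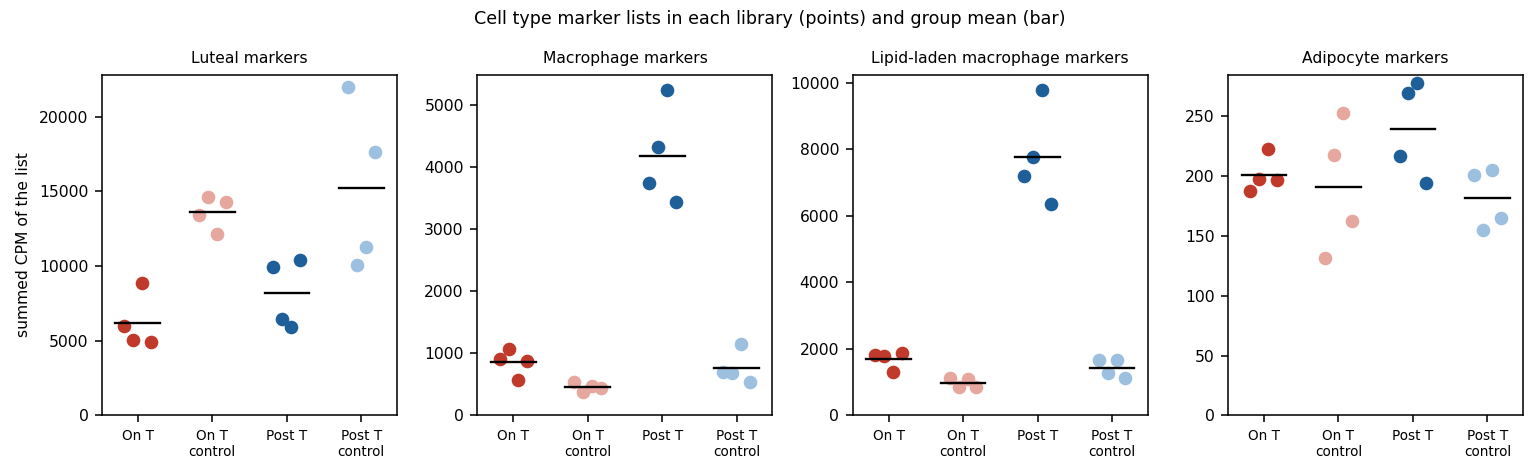
Summed CPM (vertical axes, from 0) of 4 marker lists in each library (points) with the group mean (bar). Luteal sums are lower On T without overlap and mostly lower Post T (up to 10390 CPM, against 10048 CPM and more in controls), macrophage sums stand at 3435 to 5239 CPM in Post T libraries against at most 1142 CPM in any other, and adipocyte sums overlap across groups.

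Profiles closest to those of the called genes were found as the smallest root mean square difference of centred log2 CPM over the 16 libraries. Close to Abcg1 was Il10ra, a cytokine receptor of leukocytes (0.16, where the root mean square of the Abcg1 profile itself was 0.90). Nearest to Nr1h3 were C1qb, a complement gene of macrophages, and Vav1, a signalling gene of blood cells (0.13 and 0.16). For Apoe they were Ms4a7 and H2-D1 (0.19 and 0.21), for Plin2 Ctsh and Pnpla7 (0.21 and 0.22), for Awat1 Pira2 and Gpnmb (0.38 and 0.43), and for Abca1 Ppp2r5b and Hivep3 (0.19 and 0.20, against 0.36 for its own profile). Plin4 was closest to Cemip and Runx2 (0.49 and 0.59) and Plin5 to Mmel1 and Cdh15 (0.50 and 0.61), where their own profiles had 2.20 and 2.23. These are descriptions over libraries that share groups.

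Among 20 partners of efflux and targets of LXR outside the set, 6 rose and 2 fell Post T and 3 rose and 1 fell On T (median log2 0.22 and 0.00). Over all genes, 7.49% rose and 4.81% fell Post T, and 4.24% rose and 5.03% fell On T. The rises Post T with the smallest p were in Lpl, the lipase that frees fatty acids from lipoproteins (249 ± 21.6 CPM, against 92.3 ± 14.5 CPM in controls; log2 1.43, SE 0.15, edgeR adjusted p = 4.58e-06) and in Apobr, a receptor for apolipoprotein B (log2 1.24, SE 0.17, edgeR adjusted p = 5.67e-05). Smpdl3a, a phosphodiesterase induced by sterols, rose Post T (48.5 ± 3.31 CPM, against 26.7 ± 2.36 CPM; log2 0.86, edgeR adjusted p = 7.9e-05) and On T (log2 0.43, edgeR adjusted p = 0.0303). With 1 library left out, 0 to 4 genes rose and 1 to 3 fell On T, and 4 to 6 rose and 1 to 2 fell Post T. The On T rises were 0 without On T library 1 or 4 or control library 2 or 4, and 0 with limma on either TPM scale. Mylip, an LXR-induced ligase that degrades the LDL receptor, rose On T (log2 0.63, edgeR adjusted p = 0.0488). Lpcat3, which builds polyunsaturated phospholipids and is also an LXR target, fell On T (log2 -0.46, edgeR adjusted p = 0.000459) and Post T (log2 -0.36, edgeR adjusted p = 0.00166). Srebf1, the lipogenic LXR target, was at log2 -0.22 On T and 0.00 Post T and was not called. Rxra, the partner receptor of LXR, rose in both cohorts (log2 0.38 On T and 0.44 Post T, edgeR adjusted p = 0.0492 and 0.0157), and the transporter Abca7 fell Post T (log2 -0.72, edgeR adjusted p = 0.0218).

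Genes that free and move stored cholesterol moved in both directions. Of 15, 6 rose and 2 fell Post T, where 7.49% of all genes rose and 4.81% fell. On T, 2 rose and 4 fell, where 4.24% of all genes rose and 5.03% fell (median log2 0.11 Post T and -0.18 On T). With 1 library left out, 4 to 7 rose and 1 to 3 fell Post T, and 1 to 2 rose and 2 to 4 fell On T. Lipa, the acid lipase that cleaves cholesterol esters in lysosomes, averaged 301 ± 32.2 CPM Post T and 98.9 ± 12.5 CPM in controls (log2 1.60, SE 0.13, edgeR adjusted p = 3.35e-07). Nceh1, a neutral cholesterol ester hydrolase of macrophages (log2 0.71, edgeR adjusted p = 2.8e-05), and Npc1, the lysosomal cholesterol exporter (log2 0.52, edgeR adjusted p = 0.00185), rose Post T too. On T, Cyp27a1, which makes an oxysterol that activates LXR, averaged 26.0 ± 7.69 CPM, against 10.8 ± 2.20 CPM in controls (log2 1.27, edgeR adjusted p = 0.000899). Star, which feeds cholesterol to mitochondria for steroid synthesis, fell On T (log2 -3.06, edgeR adjusted p = 0.00229) and Post T (log2 -2.01, edgeR adjusted p = 0.0204) and is also a luteal marker. On T a fall was seen too for Tspo of the outer mitochondrial membrane (log2 -0.63, edgeR adjusted p = 0.00341).

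Of 22 tested genes that build and empty droplets, 0 rose and 1 fell On T, where 9.27% of all genes were called, and 3 rose and 2 fell Post T, where 12.3% were (median log2 0.03 and 0.01). With 1 library left out, 0 to 1 rose and 1 to 3 fell On T, and 2 to 4 rose and 2 to 4 fell Post T. Mgll, which completes triglyceride breakdown, averaged 233 ± 54.3 CPM Post T and 53.9 ± 8.01 CPM in controls (log2 2.11, SE 0.19, edgeR adjusted p = 8.73e-07). Hsd17b11, a droplet-bound dehydrogenase, rose Post T (log2 0.57, edgeR adjusted p = 0.00193). Acsl4, which activates arachidonic acid, fell in both cohorts, to 61.6 ± 8.69 CPM On T, against 197 ± 92.2 CPM in controls (log2 -1.67, edgeR adjusted p = 0.00142), and to 74.1 ± 17.7 CPM Post T, against 301 ± 97.6 CPM in controls (log2 -2.02, edgeR adjusted p = 0.000126). The triglyceride lipase Pnpla2, which perilipins hold in check, was at log2 -0.05 On T and 0.24 Post T and was not called.

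**Figure D5:**
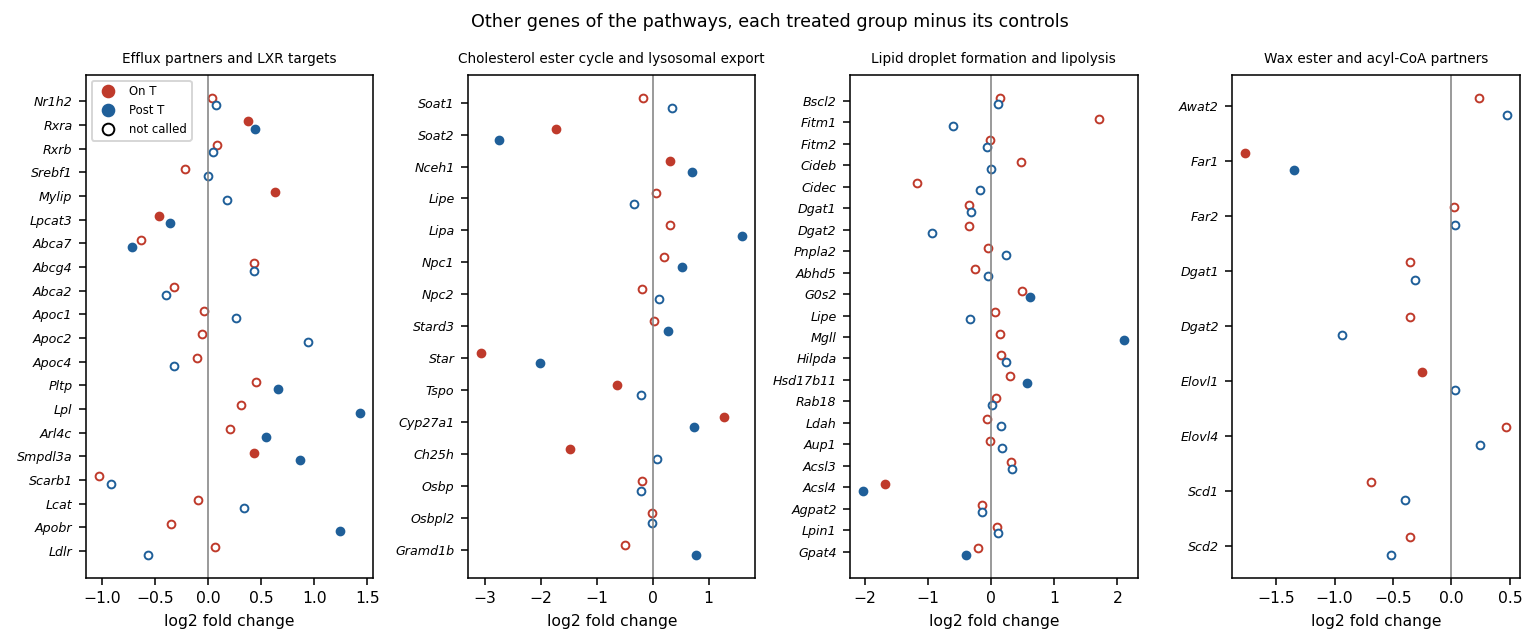
Log2 fold change (horizontal axes) of the other genes of 4 pathways in On T (red) and Post T (blue) relative to their controls, filled where the adjusted p was under 0.05. Filled blue points to the right, such as Lpl, Lipa and Mgll, sit beside filled points to the left for Star, Acsl4 and Far1.

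Whether the testosterone effect itself differed between the cohorts was tested as the Post T effect minus the On T effect, which draws on the same 16 libraries. It is built from the comparisons that were known when the set was proposed, so for the 10 genes it is not independent of their choice. Of all genes, 3.25% were called (2.93% with the larger value Post T), and 2 of the 10 were, Abcg1 (log2 1.38, SE 0.24, edgeR adjusted p = 0.00309) and Nr1h3 (log2 1.23, SE 0.28, edgeR adjusted p = 0.0224), both with the larger effect Post T. For Plin2 (log2 1.17, edgeR adjusted p = 0.0587, 95% interval 0.49 to 1.84) and Abca1 (log2 0.76, edgeR adjusted p = 0.0845, 95% interval 0.28 to 1.24) the difference did not pass after adjustment. It did not pass for Awat1 either (log2 1.59, edgeR adjusted p = 0.397, 95% interval -0.12 to 3.30), nor for Plin5 (log2 -2.74, edgeR adjusted p = 0.14), Plin4 (log2 -1.44, edgeR adjusted p = 0.446), Plin1 (log2 1.69, edgeR adjusted p = 0.224), Apoe (log2 0.64, edgeR adjusted p = 0.34) or Plin3 (log2 0.04, edgeR adjusted p = 0.946). Of the pathway genes outside the set (20, 15, 22 and 9 tested in the 4 lists), 5 had a higher log2 fold change Post T than On T. They were Lpl (log2 1.12, edgeR adjusted p = 0.00544), Apobr (log2 1.59, edgeR adjusted p = 0.00107), Lipa (log2 1.29, edgeR adjusted p = 0.000739), Mgll (log2 1.97, edgeR adjusted p = 0.000676) and the sterol carrier Gramd1b (log2 1.27, edgeR adjusted p = 0.0241). For Apobr and Gramd1b the 2 cohorts differed in direction. Apobr was at log2 -0.35 On T and 1.24 Post T. Gramd1b averaged 321 CPM On T and 453 CPM in controls, and 482 CPM Post T and 283 CPM in controls. Nr1h3 was not called without Post T library 3 (log2 1.13, edgeR adjusted p = 0.0543). Plin2 was called without On T control library 2 or 4 or Post T control library 3 (log2 1.304, 1.31 and 1.32), Abca1 without On T control library 3 (log2 0.88) and Plin5 without Post T control library 2 (log2 -3.07), and DESeq2 called all 3 with every library in. Without Post T control library 1 the difference of Plin5 was -1.79 and was not called. The difference of Awat1 passed with limma on log2(TPM + 1) (log2 1.81) and on log2(TPM + 0.1) (log2 2.21), and without On T control library 1, which holds 4 of the 6 control counts, it was 0.66 and was not called. Age and exposure differ together between the cohorts and cannot be told apart.

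The controls of both cohorts, which received oil only, give the levels without testosterone at both ages. No gene was called between them by edgeR (0 of 18833, with 1892 at an unadjusted p under 0.05), while DESeq2 called 173 and none of the 10. Without adjustment, 7 of the 10 had p under 0.05, where 10.0% of all genes did. These same control libraries entered the comparisons known when the set was proposed. For the 10 genes the contrast is therefore not independent of their choice, and nothing is read from that number. Awat1 was higher in older than in younger controls in each of 4 libraries (log2 2.26, SE 0.57, edgeR adjusted p = 0.201), on 26 counts in all against 6 (log2 3.18 without On T control library 1), which alone would not have passed the filter. Abcg1 was higher in older controls without overlap as well (log2 0.56, SE 0.17, edgeR adjusted p = 0.257), and Plin1 was lower without overlap (log2 -1.43, SE 0.47, edgeR adjusted p = 0.295). Groups did not overlap for 5.89% of all genes in this comparison (3.28% higher and 2.61% lower in older controls). The values for Plin5 (log2 1.89, edgeR adjusted p = 0.252, and log2 0.95 without Post T control library 1), Apoe (log2 0.58, edgeR adjusted p = 0.336), Nr1h3 (log2 0.50, edgeR adjusted p = 0.402) and Abca1 (log2 -0.36, edgeR adjusted p = 0.46) came from overlapping groups. None of these differences between controls passed, and they are given as the baseline against which each treated group was set.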

How the data were processed

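Poly(A) RNA of 16 ovaries, 1 per mouse, was sequenced as paired ends after directional library preparation, per the labels' protocols. Tools listed in the submitters' processing notes, without role or order, are RSEM 1.3.3, STAR 2.7.8a, FastQC 0.11.8 and cutadapt 2.3, with the build GRCm38. The deposited expected counts are estimated counts per gene that held whole numbers. The deposited TPM were made by the authors and are relative to transcript length and library. Which annotation release was used, and whether counting was strand-aware, is not given in the sources used here.

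Counts were filtered with filterByExpr (minimum count 10), scaled by TMM and fitted in R 4.3.3 with edgeR 4.0.16, all 16 libraries in 1 fit with a mean per group. Contrasts had the quasi-likelihood F test with Benjamini-Hochberg adjustment at 0.05. Each SE was derived from the fold change and the F value, and intervals are at 95%. A floor of 3 counts covers counting error only. Alternatives were median-of-ratios scaling, 2 other filters, DESeq2 1.42.0, limma 3.58.1 on log2(TPM + 1) and log2(TPM + 0.1), a fit of 8 libraries, a replicate block, age as a covariate and leaving out libraries. The fit was tested on simulated data.

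The 10 genes and all gene lists were chosen with earlier results of these data known. The text names up to 3 called genes with the smallest p per pathway list and cohort, up to 2 per marker list with its most abundant gene, and the 2 nearest profiles of each called gene, of which 1 is not reported here. Nr1h2, Srebf1, Rxra, Abca7, Pnpla2, Awat2, Cx3cr1, Cd163, Adipoq, Cidec, Lep, Retn, the untested wax ester genes and the genes outside the set in the difference of effects were named after their values were seen. Positions are from GENCODE on GRCm38, and promoters are from RefSeq on GRCm38.p6.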

Additional observations from a re-analysis of the deposited data

Results flagged for a closer look

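Among 40 checks of 1 gene in 1 group of 4, 3 libraries lay far from the other 3, and chance alone marks about 1 group in 20. Plin4 was at 14.0 CPM in Post T library 2, where the others were at 5.80 to 7.03 CPM. Abcg1 was at 87.4 CPM in Post T library 3, where the others were at 63.1 to 66.5 CPM. Nr1h3 was at 5.75 CPM in On T library 3, where the others were at 8.98 to 9.40 CPM.

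The Post T effect minus the On T effect was 1.38 on the log2 scale for Abcg1 and 1.23 for Nr1h3, and both passed the threshold over all genes. The genes were chosen with both effects known, so this is a description and no independent test.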

How the results depend on the processing

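Of 378 fold changes of the 10 genes under other settings, 362 kept their direction and their side of the threshold, 2 lost the call, 8 gained it and 6 changed sign. With 1 library left out, these numbers were 618, 6, 7 and 9 of 640. The sign changes were in values near 0. On T, Abca1 (0.06) was at -0.010 with limma on log2(TPM + 1) and also on log2(TPM + 0.1), at -0.022 without library 2 of On T together with library 1 of the Post T controls, and at -0.058 to 0.20 with 1 library left out. Nr1h3 On T (0.11) was at -0.078 and -0.091 with limma on those scales, and Plin2 On T (-0.09) was at -0.21 to 0.14 with 1 library left out. Plin3 was at -0.034 to 0.17 in the difference of effects and at -0.020 to 0.17 between older and younger controls with 1 library left out, and at -0.020 between controls without that pair. The causes were not tested.

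Genes called On T (1746) numbered 1130 with limma on log2(TPM + 1) and 1081 to 2071 with 1 library left out. Post T (2315) the range was 1753 to 2568. For the difference of effects (612), DESeq2 called 999 genes, and 5 of the 10 rather than 2, and with 1 library left out 453 to 735 genes and 1 to 3 of the 10 were called. Between older and younger controls (0), 20 genes were called with no filter, 173 by DESeq2, 1 without that pair and 0 to 9 with 1 library left out. Of the 10 genes, 3 to 4 were called On T and 8 to 9 Post T with 1 library left out. The On T call of Apoe was lost in 5 of those fits, with adjusted p up to 0.123.

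With the replicate number as a block, 4, 8, 2 and 0 of the 10 genes were called in the 4 contrasts, as without it, with 1676 genes called On T and 2274 Post T. Same-numbered libraries were not paired by their residuals, whose correlations ran from -0.28 to 0.28 (median 0.06) against -0.36 to 0.28 for other pairs.
Depth limits Awat1 most, with 43 counts in the On T libraries together and 6 in their controls.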
